A study of Mus musculus with 18 samples.

Results

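The genes described here are 9 enzymes and lipogenic effectors of de novo fatty acid synthesis, taken by their symbols from the gene column of the RNA-seq table: Fasn, Acaca, Acacb, Acly, Acss2, Me1, Thrsp, Pnpla3 and Aacs. All 9 were among the 15572 genes of the table and passed the filter on low counts. Their chromatin was read from the ATAC-seq and H3K9me2 ChIP-seq summits at their RefSeq starts and gene bodies on mm10.

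De novo lipogenesis turns carbohydrate into fatty acids in the cytosol of the hepatocyte, mostly after a meal. Acetyl-CoA is set free from citrate by ATP citrate lyase (Acly) or made from acetate by Acss2, acetyl-CoA carboxylase (Acaca, Acacb) makes malonyl-CoA from it, and fatty acid synthase (Fasn) builds palmitate from both with NADPH, part of which comes from malic enzyme (Me1). In liver this program is known to be switched on by insulin and glucose through USF-1, SREBP-1c, LXR and ChREBP.

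The study asked how the histone demethylase JMJD1C acts on lipogenic genes of mouse liver after feeding. The mice were C57BL/6J, WT or JMJD1C-LKO, the latter carrying floxed Jmjd1c alleles that are deleted by Cre under the albumin promoter, so that deletion is aimed at hepatocytes and other liver cells keep the gene. Each group had 2 samples: RNA-seq covered refed mice of both genotypes, ATAC-seq covered fasted and refed WT and refed JMJD1C-LKO livers, and H3K9me2 ChIP-seq with matched inputs covered fasted and refed WT livers. The mice had been on chow for 6 to 8 weeks and were fasted overnight, and refed groups then received a high carbohydrate diet for 6 h by the labels, while the methods state a longer time and an age of 12 weeks. Each RNA sample was pooled RNA from an unstated number of mice, and each peak sample was 1 liver. The study describes its sequencing samples as biological replicates, and which mice went into each RNA pool is not given in the sources used here, so p-values measure the spread between these pools.

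The RNA libraries held between 51265128 and 54400509 counts each. Their liver origin was plain from hepatocyte markers, since all 8 were detected and Alb, which encodes albumin, alone had between 71445 and 86053 CPM, counts scaled to library size. Jmjd1c itself had 22.0 and 22.8 CPM in the WT libraries and 20.04 and 20.5 CPM in the libraries labelled JMJD1C-LKO, a log2 difference of −0.14 ± 0.08 (SE) that missed the threshold (edgeR's quasi-likelihood test, adjusted p = 0.233). This count covers the whole gene and does not resolve the deleted exons, so it does not check the label, and the RNA groups are named by their labels below. Among the peak samples, refed H3K9me2 replicate 1 stood apart, with 1297 summits against 7690 to 13456 in the other ChIP livers, and only 0.308% to 2.0% of its summits lay within 200 bp of a summit of another ChIP liver, against 12% to 13.8% for the ATAC-seq livers. Results from it are given apart.

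The sequences at the starts of these genes are given first, since the chromatin results below refer to positions in them. RefSeq windows from 250 bases before to 50 bases after each start on GRCm38.p6 were matched for all 9 genes, Me1 having a window for each of its 2 starts. The 6 windows printed here belong to the 3 genes with an ATAC-seq summit at the start (Acss2, Acly, Aacs), the 2 genes that fell most by fold (Pnpla3 and Me1) and Fasn. Each is written 5′ to 3′ on the strand of the gene, base 251 is the transcript start, and capitals mark matches on either strand to the GC box GGGCGG, the CCAAT box CCAAT, the E-box CACGTG, the sterol element TCACNCCAC or the TATA box TATAAA.
Acss2 (chr2:155517793-155518092, plus strand): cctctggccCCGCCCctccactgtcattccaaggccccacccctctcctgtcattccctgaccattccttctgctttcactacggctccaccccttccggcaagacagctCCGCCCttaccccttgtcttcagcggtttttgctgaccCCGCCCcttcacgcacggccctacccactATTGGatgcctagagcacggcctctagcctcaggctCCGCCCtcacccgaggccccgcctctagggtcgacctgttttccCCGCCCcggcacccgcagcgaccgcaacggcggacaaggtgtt
Acly (chr11:100527951-100528250, minus strand): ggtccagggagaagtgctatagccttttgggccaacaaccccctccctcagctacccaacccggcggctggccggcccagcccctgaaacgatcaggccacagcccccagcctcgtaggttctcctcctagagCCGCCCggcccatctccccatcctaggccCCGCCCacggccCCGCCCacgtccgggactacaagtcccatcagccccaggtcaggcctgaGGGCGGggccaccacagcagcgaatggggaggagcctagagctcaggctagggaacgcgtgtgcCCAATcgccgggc
Aacs (chr5:125475623-125475922, plus strand): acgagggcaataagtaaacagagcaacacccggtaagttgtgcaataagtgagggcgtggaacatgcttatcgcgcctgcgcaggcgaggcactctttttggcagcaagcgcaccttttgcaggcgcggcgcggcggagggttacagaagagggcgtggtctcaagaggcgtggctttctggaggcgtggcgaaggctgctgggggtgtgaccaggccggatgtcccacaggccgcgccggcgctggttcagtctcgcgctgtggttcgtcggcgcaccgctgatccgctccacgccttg
Pnpla3 (chr15:84167566-84167865, plus strand): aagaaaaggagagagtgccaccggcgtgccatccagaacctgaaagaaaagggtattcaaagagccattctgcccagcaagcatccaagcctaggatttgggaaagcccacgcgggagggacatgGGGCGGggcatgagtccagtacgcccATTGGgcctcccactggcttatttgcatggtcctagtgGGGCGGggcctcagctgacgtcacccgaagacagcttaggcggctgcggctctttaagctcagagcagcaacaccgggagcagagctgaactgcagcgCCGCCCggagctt
Me1 (chr9:86695865-86696164, minus strand): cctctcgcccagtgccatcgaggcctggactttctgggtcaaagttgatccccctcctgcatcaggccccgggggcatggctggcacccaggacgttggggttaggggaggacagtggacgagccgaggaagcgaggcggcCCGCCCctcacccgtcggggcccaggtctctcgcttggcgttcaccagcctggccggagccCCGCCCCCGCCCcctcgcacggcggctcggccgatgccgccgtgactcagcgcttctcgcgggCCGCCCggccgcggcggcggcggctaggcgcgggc
Fasn (chr11:120824498-120824797, minus strand): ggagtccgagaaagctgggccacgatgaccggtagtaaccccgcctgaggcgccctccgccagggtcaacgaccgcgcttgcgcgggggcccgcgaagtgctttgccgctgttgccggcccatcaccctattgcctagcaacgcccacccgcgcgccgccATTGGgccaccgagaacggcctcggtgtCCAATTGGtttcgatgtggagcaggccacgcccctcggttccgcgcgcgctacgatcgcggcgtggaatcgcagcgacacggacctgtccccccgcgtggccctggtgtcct

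No E-box CACGTG and no TCACNCCAC was found in any of the 10 windows of the 9 genes, where 7.15% and 1.24% of all 32851 RefSeq windows of the same length hold one. These letters are not in these windows. Other spellings of the E-box and the sterol element, and sites farther away, were not searched. CCAAT occurred at 7 of 9 genes, against 37.4% of all windows, with 3 matches in Fasn, of which the last pair overlap by 2 bases. GGGCGG occurred at 4 genes (Acly, Acss2, Me1 and Pnpla3), against 35.7% of all windows, and Acss2 held 5 matches. TATAAA occurred only at Acacb among the 9 genes, against 13.6% of all windows. The GC content of the windows spanned 39.7% at Acaca to 74.7% at the upstream start of Me1, around a median of 52.7% over all windows.

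In refed WT liver, the 9 transcripts differed in abundance by more than 2 orders of magnitude per unit of length. On the TPM scale, which corrects counts for transcript length as well as library size, Thrsp led with a level of 413 ± 70.4 (SD, n = 2) and Me1 followed with 100.2 ± 5.59. Acss2 at 36.4 ± 2.83, Acly at 32.4 ± 3.88, Fasn at 30.8 ± 5.37 and Aacs at 23.6 ± 5.03 TPM came next, and in this stretch the 2 libraries of each gene overlapped with those of the next. Acaca had 13.4 ± 1.55, Acacb 5.54 ± 1.40 and Pnpla3 0.877 ± 0.231 TPM, and these did not overlap with one another or with Aacs. The order of the means was the same in the libraries labelled JMJD1C-LKO, where Thrsp had 475 and 298 TPM and Pnpla3 0.129 and 0.317 TPM in the 2 libraries.

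The comparison of refed JMJD1C-LKO with refed WT liver asks how loss of JMJD1C bears on lipogenic transcripts. Of the 9 genes, Me1, Acaca, Pnpla3 and Aacs were lower, Acss2 was higher, and Fasn, Acacb, Acly and Thrsp did not pass the test (adjusted p under 0.05). Over all 14151 genes tested, 13.4% were lower and 14.6% were higher, and with upper-quartile scaling the same test called 1330 genes lower and 2518 higher in place of 1892 and 2066. The median log2 difference was −0.29 over the 9 genes and 0.0061 over all genes tested. The genotypes did not overlap for the same 4 lower genes and for Acss2, which was also true of 33.8% of all genes in the lower and 33.7% in the higher direction. In RNA from whole liver, fewer cells of a type and less RNA per cell cannot be told apart.

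**Figure D1:**
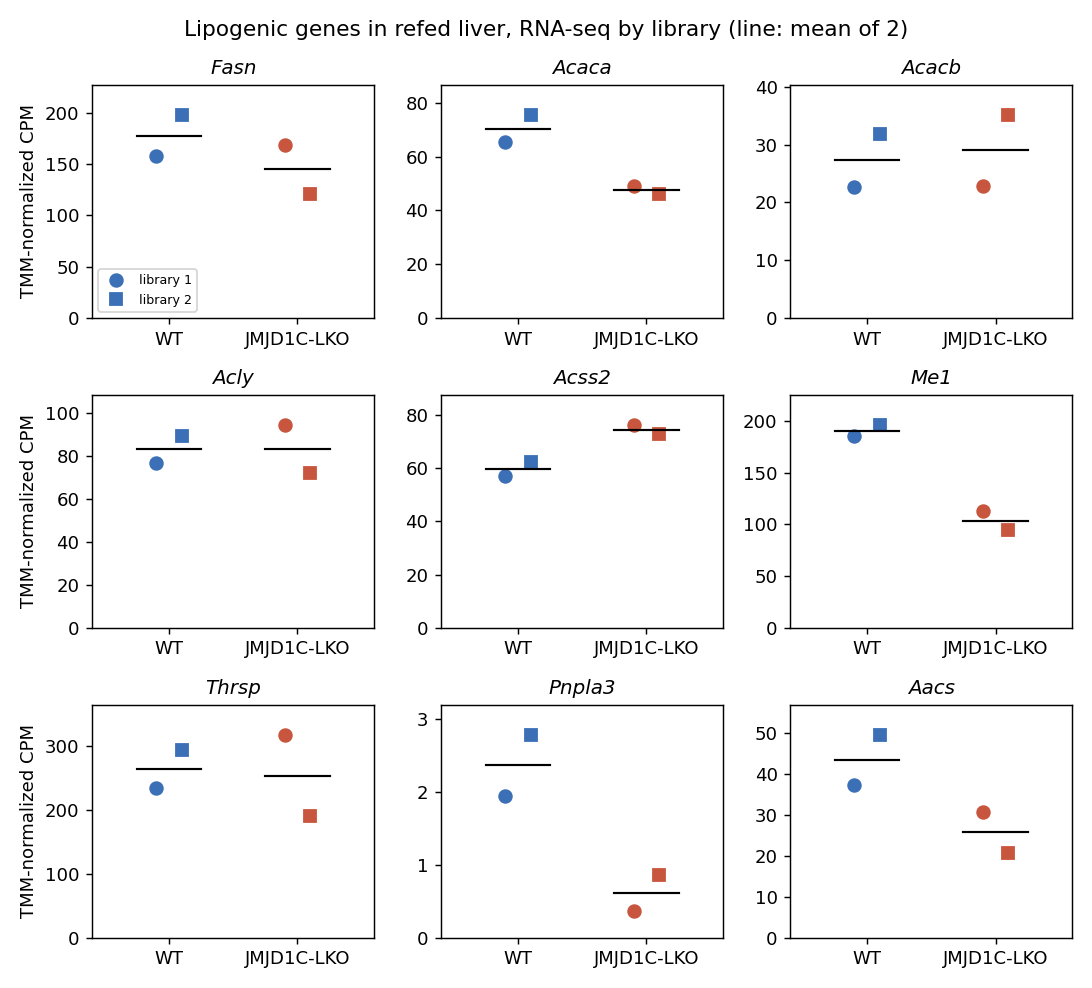
TMM-normalized CPM of the 9 genes (y axis, from 0) in each refed RNA library, by genotype label on the x axis. Circles are library 1, squares library 2 and lines the mean of 2; Me1, Acaca, Pnpla3 and Aacs lie lower in both libraries labelled JMJD1C-LKO, Acss2 lies higher, and the other 4 genes overlap.

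Me1, cytosolic malic enzyme, which turns malate into pyruvate and yields NADPH, had 185 and 196 CPM in the WT libraries and 112 and 94.3 CPM in those labelled JMJD1C-LKO. Both of the latter lay well below both WT values, a mean 45.7% lower. The log2 difference was −0.88 ± 0.10 (SE, 95% interval −1.10 to −0.66, adjusted p = 0.00034, edgeR), and it was the one gene-level call among the 9 that held when any single library was left out (−1.02 to −0.76).

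Acaca, the acetyl-CoA carboxylase that serves fatty acid synthesis, had 65.5 and 75.4 CPM in WT and 49.0 and 46.2 CPM in the libraries labelled JMJD1C-LKO. The groups did not overlap, and the log2 difference was −0.57 ± 0.09 (edgeR adjusted p = 0.0021). Without WT replicate 2 the adjusted p rose to 0.05004, just short of the threshold. Acacb, the carboxylase isoform tied to mitochondria and to the control of fatty acid oxidation, had 22.6 and 31.8 CPM in WT and 22.9 and 35.1 CPM in the other group. These pairs nearly coincided, and the log2 difference of 0.090 had a 95% interval of −0.35 to 0.53 (adjusted p = 0.764, edgeR).

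Pnpla3, a lipid droplet protein with lipase and transacylase activity and a known SREBP-1c target, showed the largest fold among the 9 genes at the lowest level. It had 101 and 145 counts in the WT libraries and 18 and 47 in those labelled JMJD1C-LKO, or 1.95 and 2.78 CPM against 0.364 and 0.853 CPM. The groups did not overlap, but the 2 libraries labelled JMJD1C-LKO themselves differed by 2.34-fold. The log2 difference was −1.94 ± 0.38 (95% interval −2.79 to −1.09, adjusted p = 0.0054, edgeR), and without WT replicate 2 it was −1.67 with an adjusted p of 0.0758. Its size moved with the library left out, from −1.48 without JMJD1C-LKO replicate 1 to −2.69 without JMJD1C-LKO replicate 2.

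Aacs, the cytosolic enzyme that activates acetoacetate for lipid synthesis, had 37.4 and 49.6 CPM in WT and 30.8 and 20.8 CPM in the libraries labelled JMJD1C-LKO. Both WT values were higher, yet the spread within each genotype was wider than the gap between the nearest libraries of the 2 genotypes. The log2 difference was −0.76 ± 0.18 (edgeR adjusted p = 0.0121). The call was lost with DESeq2 (adjusted p = 0.0983) and without WT replicate 2 (adjusted p = 0.136).

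Acss2, which makes acetyl-CoA from acetate in the cytosol and nucleus, moved the other way. It had 57.2 and 62.5 CPM in WT and 76.2 and 72.9 CPM in the libraries labelled JMJD1C-LKO, which lay above both WT values by a mean of 24.6%. The log2 difference was 0.32 ± 0.08 (edgeR adjusted p = 0.0179). It passed with all 4 libraries but not without WT replicate 1 (adjusted p = 0.225) or without WT replicate 2 (adjusted p = 0.0918). Acly, which supplies acetyl-CoA from citrate, had 76.8 and 89.1 CPM in WT and 94.2 and 71.9 CPM in the other group, so that the WT values lay between the 2 others. Its log2 difference of 0.0012 had a 95% interval of −0.28 to 0.28 (adjusted p = 0.996, edgeR).

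Fasn had 158 and 198 CPM in WT and 169 and 121 CPM in the libraries labelled JMJD1C-LKO. One of the latter fell between the WT values and the other below both. The log2 difference was −0.29 ± 0.15 (95% interval −0.63 to 0.048, adjusted p = 0.181, edgeR). Thrsp, or Spot 14, a small protein that pairs with Mid1ip1, a partner of acetyl-CoA carboxylase, had 235 and 293 CPM in WT and 317 and 190 CPM in the other group. These 2 libraries flanked the WT pair, and the log2 difference was −0.058 ± 0.20 (adjusted p = 0.855, edgeR). For both genes the call turned on 1 library: without JMJD1C-LKO replicate 1, Fasn had a log2 difference of −0.56 (adjusted p = 0.0043) and Thrsp of −0.48 (adjusted p = 0.0090), whereas without JMJD1C-LKO replicate 2 Fasn had −0.072 (adjusted p = 0.709) and Thrsp 0.27 (adjusted p = 0.131).

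**Figure D2:**
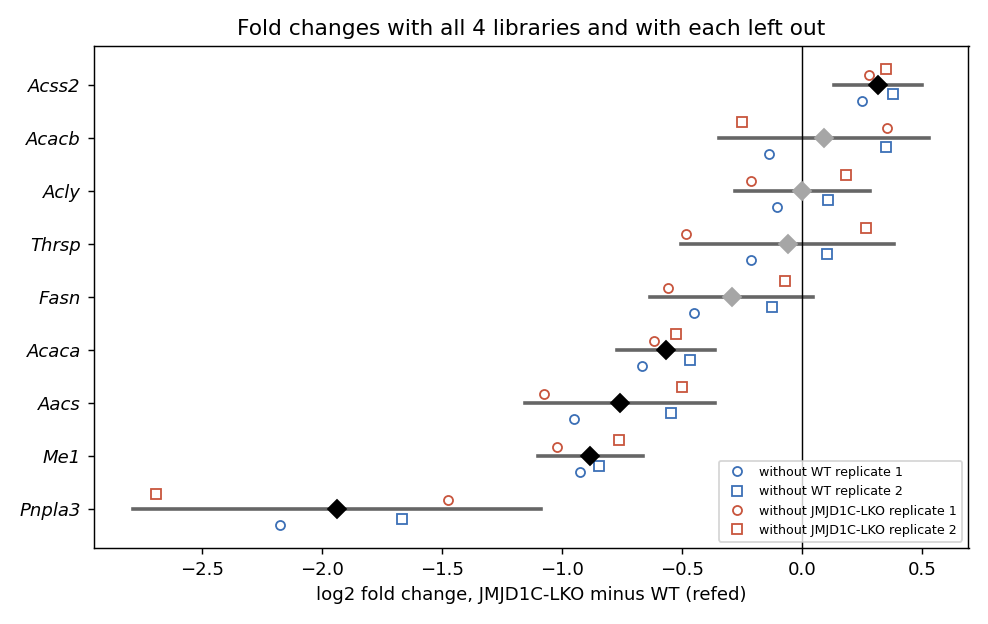
The x axis is the log2 difference between JMJD1C-LKO and WT for the 9 genes (y axis), diamonds with 95% intervals being edgeR values from all 4 libraries, black where the adjusted p is under 0.05. Open symbols leave out 1 library each; Me1, Acaca, Aacs and Pnpla3 stay below 0 and Acss2 above 0 in each such fit, while Thrsp, Acly and Acacb fall on both sides.

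The libraries of 1 genotype differed at these genes in a shared direction. WT replicate 2 was above WT replicate 1 for all 9 genes, from 1.06-fold for Me1 to 1.43-fold for Pnpla3, where 48.8% of all genes tested were higher in it. JMJD1C-LKO replicate 2 was below replicate 1 for 7 of 9 genes, most for Thrsp with a 1.67-fold gap, where 49.4% of all genes were lower in it. Acacb and Pnpla3 were the exceptions, 1.53-fold and 2.34-fold higher in replicate 2. Summed over the 9 genes, the libraries held 839 and 998 CPM in WT and 872 and 653 CPM in the other genotype, so the sums overlapped. Without WT replicate 2, Me1 alone of the 9 genes was called lower. With either WT library left out, Acss2 lost its call and far fewer of all genes tested were called lower.

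Markers of Kupffer cells and macrophages and of endothelial cells moved with the genotype label, while those of other non-parenchymal cells were mixed. The counts of markers called higher stand against 14.6% of all genes tested. All 7 Kupffer cell and macrophage markers were higher in the libraries labelled JMJD1C-LKO, with summed levels of 238 and 245 CPM in WT and 470 and 676 CPM in the other group. Endothelial markers were higher for 5 of 6 genes (96.9 and 97.9 against 131 and 173 CPM summed), stellate cell and fibroblast markers for 2 of 6 (171 and 177 against 191 and 228 CPM), lymphocyte markers for 2 of 6 (3.47 and 2.97 against 5.99 and 8.15 CPM) and red blood cell markers for 1 of 5. By edgeR 0 of 5 cholangiocyte markers were called, and 1 of them, Krt19, was lower at an unadjusted p of 0.0283. Among uncalled stellate markers, Lrat was lower and Reln and Dcn were higher at an unadjusted p under 0.05 (edgeR). Summed hepatocyte markers, led by Alb, were 118415 and 115747 CPM in WT and 120769 and 109934 CPM in the other group, with 3 of 8 higher (Tat, Pck1 and Cps1). Of 8 adipocyte markers 2 were tested and Fabp4 was higher, Adipoq and Adig were too low to test, and Lep, Retn, Plin1 and Cidea were not in the table. The part of these markers in the results above was not tested.

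In the fit over transcripts, Me1 alone kept its call. Both of its RefSeq transcripts were lower, NM_008615, which begins at the upstream start, with 147 and 160 CPM in WT against 91.5 and 77.1 CPM, and NM_001198933, which begins 8637 bp downstream, with 38.3 and 35.8 against 20.9 and 17.3 CPM. Their log2 differences were −0.86 ± 0.11 and −0.95 ± 0.12 (both adjusted p = 0.0331, edgeR). The upstream transcript held 79.3% to 81.7% of Me1 counts in every library, so the split between the starts did not separate the genotypes. Acly has 2 transcripts that share their start and differ by an exon. The longer, NM_001199296, held 36.3% and 36.9% of Acly counts in WT and 41.6% and 44.4% in the libraries labelled JMJD1C-LKO. How often such shares differ between the groups over other genes was not measured. Neither transcript's level passed the test, with log2 differences of 0.23 ± 0.14 for the longer (adjusted p = 0.374, edgeR) and −0.15 ± 0.17 for the shorter (adjusted p = 0.653, edgeR). Reads in shared exons were divided between transcripts by estimation, and these shares are uncertain to that extent.

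The remaining 7 genes have 1 transcript each in the table, so their counts are those of the gene level. None was called in the transcript fit, whose estimate of spread and correction for multiple testing differ from those of the gene fit. Log2 differences stayed nearly the same there, −0.56 for Acaca, −1.94 for Pnpla3 and −0.76 for Aacs. Of all 11 member transcripts, 2 were lower and 0 higher, where 1.38% of all 22296 transcripts tested were lower and 2.12% higher. At an unadjusted p under 0.05, 5 were lower and 1 higher (Acss2), against 12% and 13.1% of all transcripts tested. DESeq2 called 5 lower and 0 higher, against 5.73% and 6.34% of the 20632 transcripts to which it gave an adjusted p. Acaca came nearest among the uncalled, with an adjusted p of 0.0515 (edgeR). The 2 Me1 calls were lost when any 1 library was left out and under the replicate block.

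Other genes around fatty acid synthesis were read from 6 lists, and in each the 3 genes with the smallest p past the threshold are named by rule. The counts in these lists stand against 13.4% lower and 14.6% higher of all genes tested. G6pdx and Me2 below, Gpam, Agpat2, Dgat2, Scd2, Prkab1, Scap, Insig1, Elovl5, Dgat1, Fads2, Fads1, Pgk1 and Gckr lie outside that rule. They were named after their values were seen. Of 11 tested genes that supply citrate, acetate or NADPH, 3 were lower and 2 higher in the libraries labelled JMJD1C-LKO, with a median log2 difference of −0.074. Tkt (transketolase, of the pentose phosphate pathway) fell by 0.63 on the log2 scale (118 and 117 against 74.8 and 76.5 CPM, adjusted p = 0.00050, edgeR). Slc16a1, a monocarboxylate carrier, fell by 0.69 (adjusted p = 0.00077, edgeR), and cytosolic Idh1, a source of NADPH, fell by 0.40 (adjusted p = 0.0143, edgeR). The higher genes were G6pdx, which opens the pentose phosphate pathway, and Me2, a mitochondrial malic enzyme, by 0.64 and 0.90 (adjusted p = 0.0336 and 0.0497, edgeR), both at low levels of at most 8.00 CPM. Me3 was too low to test.

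Of 9 tested regulators of acetyl-CoA carboxylase, 3 were lower and 1 was higher, with a median of −0.12. Prkaa2, a catalytic subunit of AMPK, which inhibits the carboxylase, fell by 0.60 (53.4 and 58.8 against 42.6 and 31.7 CPM, adjusted p = 0.0081, edgeR). Mid1ip1, which helps the carboxylase to polymerize, fell by 0.79 (66.0 and 73.5 against 52.3 and 28.7 CPM, adjusted p = 0.0221, edgeR). Prkab1, another AMPK subunit, fell by 0.33 (adjusted p = 0.0343, edgeR). Trib3, a pseudokinase linked to degradation of the carboxylase, rose by 0.64 (7.77 and 7.75 against 11.3 and 12.9 CPM, adjusted p = 0.0047, edgeR). Lower genes of this list thus included both an inhibitor and an activator of the enzyme, and Cop1 was not in the table.

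Among 13 transcription regulators of lipogenesis, 1 was lower and 4 were higher. Mlxipl, which encodes the glucose sensor ChREBP, had 446 and 428 CPM in WT and 307 and 314 CPM in the libraries labelled JMJD1C-LKO, a log2 difference of −0.49 ± 0.08 (adjusted p = 0.0021, edgeR). Insig2, an endoplasmic reticulum anchor that holds back SREBP, rose by 1.54 (71.7 and 69.7 against 175 and 236 CPM, adjusted p = 9.3e-05, edgeR). Ppargc1b, a coactivator, rose by 0.79 (adjusted p = 0.00073, edgeR), and Scap, the escort of SREBP, and Insig1 rose by 0.48 and 0.27 (adjusted p = 0.0023 and 0.0362, edgeR). Srebf1 overlapped between the groups, with 51.7 and 47.2 CPM in WT and 58.0 and 40.8 CPM in the other (adjusted p = 0.995, edgeR). Usf1 had 16.8 and 17.0 against 16.9 and 19.1 CPM (adjusted p = 0.542, edgeR).

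Of 11 genes of acyl chain modification and triglyceride assembly, the steps after palmitate, 6 were higher and 1 was lower, with a median of 0.39, and Gpam, Agpat2, Dgat2 and Scd2 did not pass the test. Scd1, the desaturase that makes oleate, had 369 and 354 CPM in WT and 1315 and 1571 CPM in the libraries labelled JMJD1C-LKO, a log2 rise of 1.997 ± 0.10 (adjusted p = 1.0e-05, edgeR). Lpin1, a phosphatidate phosphatase, rose by 1.58 (130.04 and 147 against 341 and 489 CPM, adjusted p = 0.00017, edgeR). Elovl6, which elongates palmitate, fell by 0.59 (66.8 and 83.0 against 49.7 and 49.6 CPM, adjusted p = 0.0033, edgeR). The elongase Elovl5, the acyltransferase Dgat1 and the desaturases Fads2 and Fads1 rose by 0.28 to 0.52 on the log2 scale.

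Of 7 genes of glucose entry and glycolysis, 1 was lower and 0 were higher by edgeR. Short of the threshold, Pgk1 was higher at an unadjusted p of 0.0200 and Gckr was lower at an unadjusted p of 0.0242 (edgeR). Pklr, liver pyruvate kinase and a classical ChREBP target, fell by 1.11 (308 and 371 against 192 and 123.8 CPM, adjusted p = 0.0020, edgeR). Of 6 genes of ketone body metabolism beside Aacs, Bdh1 was lower by 0.24 (adjusted p = 0.0435, edgeR) and Oxct1 higher by 0.79 (adjusted p = 0.0177, edgeR). Oxct1, the enzyme that commits ketone bodies to oxidation and is nearly silent in hepatocytes, stood at 2.93 and 2.30 against 4.11 and 4.92 CPM.

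**Figure D3:**
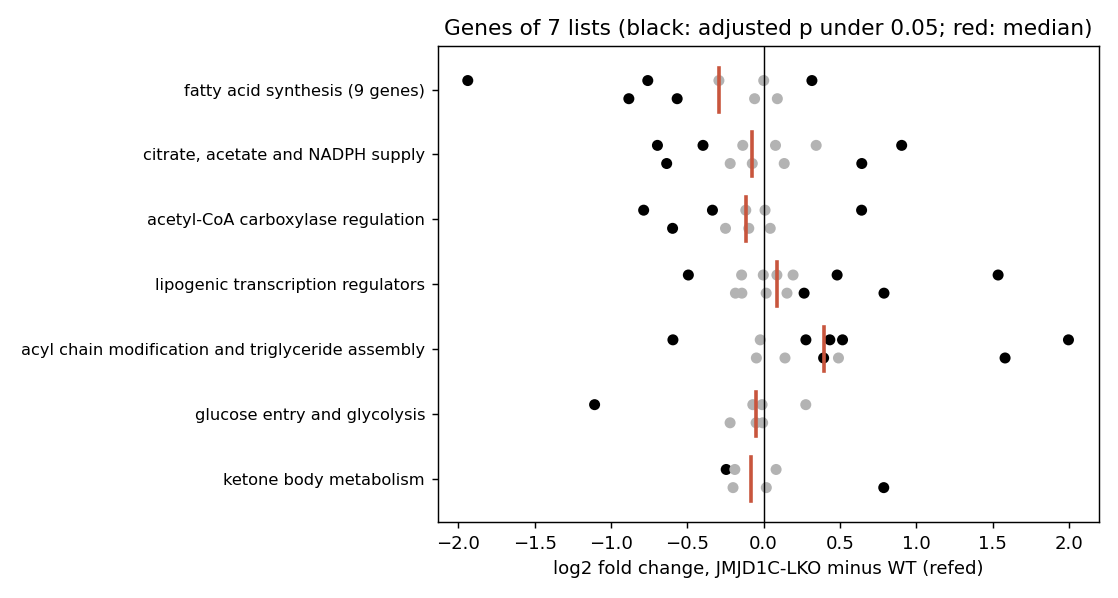
Each point is a gene tested in the RNA-seq, placed by its log2 difference between JMJD1C-LKO and WT (x axis) within 1 of 7 lists (y axis), black where the edgeR adjusted p is under 0.05, with the list's median as a red line. The median is lowest for the 9 fatty acid synthesis genes (−0.29) and highest for acyl chain modification and triglyceride assembly (0.39), and black points fall on both sides of 0 in all lists but glucose entry and glycolysis.

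ATAC-seq, in which a transposase cuts open chromatin, was used to compare the starts of these genes between fasted and refed WT liver and between the genotypes. The deposited lists give the summit of each called peak with a score, the −log10 of its q-value, and no read counts, so that a missing summit means no called peak at an unknown depth. With 2 livers a group an exact permutation test cannot go below p = 0.333 (two-sided), and none was made.

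Acss2 was the one gene of the 9 with a called summit at its start in all 4 WT livers. In the fasted livers it lay 157 and 196 bp upstream of the start (scores 4.05 and 4.88), and in the refed WT livers 144 and 130 bp upstream (scores 4.16 and 15.1). The refed replicate 2 summit ranked 335 of 3119 in its library, whereas that of fasted replicate 1 ranked 3889 of 5220. In JMJD1C-LKO replicate 1 a summit lay 45 bp downstream of the start, inside exon 1 (score 3.70, rank 1282 of 1450), and JMJD1C-LKO replicate 2 had none. In the printed window of Acss2 the WT summits fall at bases 55, 94, 107 and 121 and the JMJD1C-LKO summit at base 296.

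Acly and Aacs had a summit in 1 liver each. At Acly it was refed WT replicate 1, 11 bp upstream of the start (base 240 of the printed window, score 5.81, rank 1949 of 5027). At Aacs it was fasted replicate 2, 138 bp upstream (base 113 of the window, score 4.88, rank 1809 of 7632). Neither gene was called in the other liver of the same state.

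Counting a gene when at least 1 liver had a summit within 1000 bp of a start, 2 of 9 genes were called in fasted WT (Acss2 and Aacs), 2 in refed WT (Acss2 and Acly) and 1 in JMJD1C-LKO (Acss2). The same count gave 13.1%, 11.4% and 4.55% of 26180 annotated genes. The JMJD1C-LKO livers held 1450 and 825 summits in all, against 3119 to 7632 in the WT livers, and their lower count at these genes moved with that total, whose part in it was not tested. With only summits of score 5 or more, 0 genes were called in fasted WT and in JMJD1C-LKO and 2 in refed WT, where 8.98%, 3.1% and 8.49% of all genes were.

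Fasn, Acacb, Me1, Thrsp and Pnpla3 had no ATAC-seq summit within 1000 bp of a start or inside the gene in any liver. Their nearest summits lay at least 151 kb away for Fasn, 215 kb for Acacb, 154 kb for Me1, 63.6 kb for Thrsp and 203 kb for Pnpla3. Of the 9 genes, 7 fall in the top quartile of WT expression. The share of that quartile with a summit at the start is given for replicates 1 and 2 in turn. It was 23.1% and 11.4% for fasted WT, 19.3% and 13.1% for refed WT and 7.38% and 1.79% for JMJD1C-LKO.

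Inside gene bodies the summits were few and weak. Acaca held one in refed WT replicate 1 in intron 34, 113 kb from the start, where all bases within 100 bp were masked as repeats (score 3.15, rank 4305 of 5027). The same liver had a summit 15.8 kb upstream of the curated start of Acaca and 590 bp upstream of a start that RefSeq predicts (score 4.16). Aacs held one in intron 5, 20.7 kb from the start, in JMJD1C-LKO replicate 2 (score 2.24, rank 812 of 825). With gene bodies included, 2 of 9 genes were called in fasted WT, 3 in refed WT and 2 in JMJD1C-LKO, where 19.2%, 14.8% and 5.64% of all genes were.

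**Figure D4:**
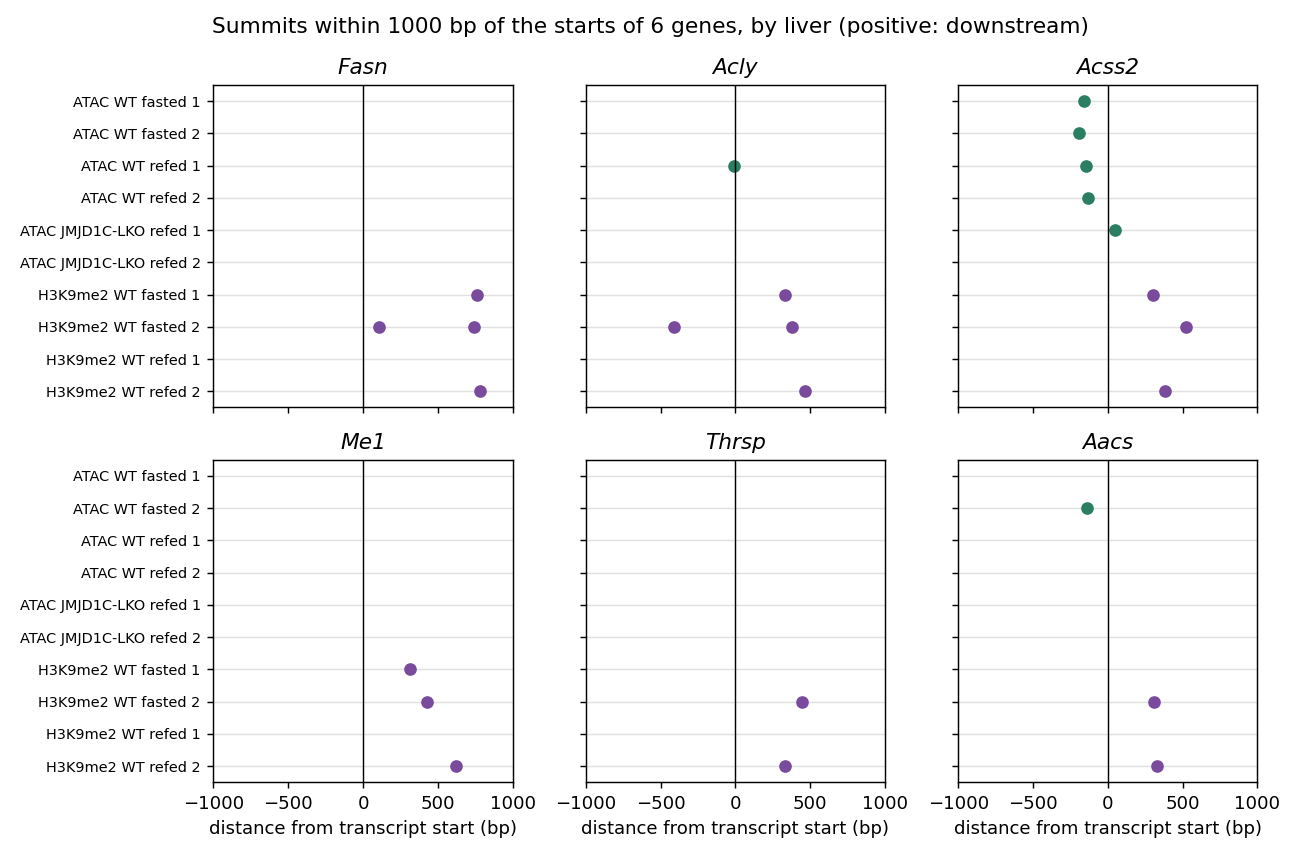
Summits within 1000 bp of the transcript starts of the 6 genes that had any, with distance from the start in bp on the x axis (positive downstream) and the 10 peak samples on the y axis, ATAC-seq in green and H3K9me2 in purple. ATAC-seq summits sit at or upstream of the start except in JMJD1C-LKO replicate 1 at Acss2, and H3K9me2 summits sit downstream except 1 at Acly in fasted replicate 2.

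H3K9me2, dimethylation of lysine 9 of histone H3, is known as a mark of silent chromatin and as a substrate of JMJD1C. Its summits were compared between fasted and refed WT liver, by their presence and not by the amount of the mark, which the lists do not hold. The 6 genes with a summit at the start were the same in both states, Fasn, Acly, Acss2, Me1, Thrsp and Aacs. Within 500 bp of a start, all 6 were still called in fasted liver but only Acly, Acss2, Thrsp and Aacs in refed liver (40.4% and 31.5% of all genes were called). At Fasn the fasted call came only from a second summit at 108 bp in fasted replicate 2 (score 11.5, rank 10526 of 13456). Its main summit lay beyond 500 bp in both states, at 761 and 739 bp in the fasted livers and 781 bp in refed replicate 2. At Me1 the distances were 317 and 430 bp in the fasted livers and 620 bp in refed replicate 2. In fasted replicate 2 all 6 were called and in fasted replicate 1 all but Thrsp and Aacs, while in refed replicate 2 all 6 were called and in refed replicate 1 none. Over all annotated genes, 42.9% had a summit at a start in at least 1 fasted and 35.3% in at least 1 refed liver. Adding gene bodies left the 6 genes as they were, with 44.3% and 37.0% of all genes. The refed count rests on replicate 2, since replicate 1 alone gave 0 at starts and only Aacs in a gene body. That Aacs summit lay in intron 5, 20.75 kb from the start, close to the ATAC-seq summit of JMJD1C-LKO replicate 2.

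The 6 called genes were the 6 with the highest TPM of the 9, and summits at starts were frequent among expressed genes in general. In the top quartile of WT expression, 84.4% and 95.8% of genes had an H3K9me2 summit at a start in the fasted livers and 91.3% in refed replicate 2, against 10.6%, 29.1% and 15.7% in the lowest quartile of tested genes and 4.38%, 7.58% and 5.50% of genes not tested in the RNA-seq. In refed replicate 1 the share was 0.174% in the top quartile. Pnpla3, in quartile 2, and Acacb, in quartile 3, had no summit at a curated start, where these quartiles had 54.2% and 85.2% in refed replicate 2. Acaca, in the top quartile, had none at its curated start either.

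**Figure D5:**
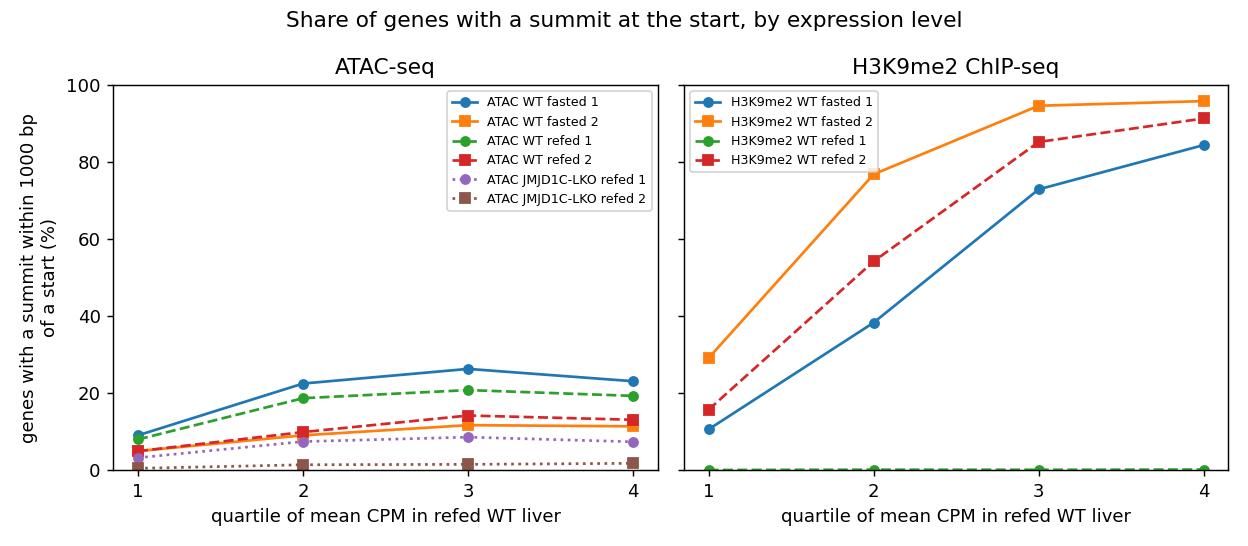
The y axis is the percent of genes with a summit within 1000 bp of a start and the x axis the quartile of mean CPM in refed WT liver (1 lowest, 4 highest), with a line for each ATAC-seq liver (left) and each H3K9me2 liver (right). The H3K9me2 share reaches 84.4% to 95.8% in quartile 4 in 3 livers and stays near 0 in refed replicate 1, while no ATAC-seq liver passes 26.3%.

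The H3K9me2 summits lay mainly in the first intron or first exon, at Fasn at nearly the same distance in each liver. At Fasn they were 761 and 739 bp downstream of the start in the fasted livers and 781 bp in refed replicate 2, within intron 1, with a second one at 108 bp in exon 1 in fasted replicate 2. At Acly they were 332 and 380 bp downstream in the fasted livers and 467 bp in refed replicate 2, with a weak extra summit 408 bp upstream in fasted replicate 2 (score 5.72). At Acss2 the distances were 302, 521 and 380 bp, and at the upstream start of Me1 317, 430 and 620 bp, in the same order of livers. The start of the noncoding gene A330041J22Rik lies 472 bp from that of Me1, and a summit there cannot be assigned to one of the pair. These 4 genes had their main summits in intron 1. At Thrsp the summits lay 447 bp downstream in fasted replicate 2 and 329 bp in refed replicate 2, both in exon 1, and at Aacs 306 and 328 bp in intron 1.

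Summits downstream of the start were the rule in these libraries. The median distance of summits within 1000 bp of any start was 267 and 226 bp downstream in the fasted livers and 267 bp in refed replicate 2, and 83.2% to 88.6% of them were downstream, whereas in the ATAC-seq livers the median was 34 to 103 bp upstream. Scores can be read only by rank within a library. The Fasn summit ranked 3067 of 7690 and 4462 of 13456 in the fasted livers and 392 of 9929 in refed replicate 2, the highest rank of a member in that liver. Acly ranked 4046 of 7690, 792 of 13456 and 3871 of 9929, Me1 2729, 1611 and 2355, and Acss2 6394, 5500 and 2029 in the same livers. As a share of summits at least as strong, Acly stood at 52.6% and 5.89% in the fasted livers and 39.0% in refed replicate 2, and Me1 at 35.5% and 11.97% against 23.7%, so both lay within their fasted spread. Fasn stood at 39.9% and 33.2% against 3.95%, and Acss2 at 83.2% and 40.9% against 20.4%, so these 2 ranked higher in refed replicate 2 than in either fasted liver. Thrsp and Aacs had no start summit in fasted replicate 1. In fasted replicate 2 and refed replicate 2, Thrsp stood at 34.9% and 26.9% and Aacs at 18.7% and 18.8%. With 1 refed liver holding these summits, the differences were not tested.

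Acaca and Acacb had H3K9me2 summits at starts that RefSeq predicts but has not curated. At Acaca, summits lay 66.0, 66.0 and 66.1 kb upstream of the curated start in fasted replicates 1 and 2 and refed replicate 2, which is 210 to 299 bp upstream of predicted starts. Others lay 15.4, 15.3 and 15.4 kb upstream in the same livers, 159 to 196 bp before another predicted start and on the same side as the ATAC-seq summit of refed WT replicate 1. The one nearer to the curated start ranked 3831 of 7690 in fasted replicate 1, 1322 of 13456 in fasted replicate 2 and 1124 of 9929 in refed replicate 2. At Acacb, summits lay 458 and 912 bp downstream of a predicted start in fasted replicates 1 and 2, and none in the refed livers. With predicted starts counted too, a choice made after the positions were seen, H3K9me2 was called at 8 of 9 genes in fasted and 7 in refed liver, against 31.7% and 26% of 38660 genes, and Pnpla3 remained without a summit, the nearest lying at least 24.6 kb away.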

How the data were processed

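The members and gene lists were chosen with earlier results of these data known. For RNA-seq the authors deposited a table of estimated counts for each RefSeq transcript, not scaled (65.7% to 66.0% of them fractional), and the submitters' notes name HISAT2, Partek and DESeq2 without roles. The authors called peaks with MACS2 2.1.1 on mm10 in each sample and deposited summits with the −log10 of the q-value, after a cutoff of q = 0.05 and, for ChIP-seq, 2.5-fold enrichment over input. The notes name BWA, whereas the methods name Bowtie2 for ChIP-seq. A second RNA-seq table holds the authors' own comparison per transcript (p-values, FDR, fold changes) and was not used. Input samples entered only through the ChIP-seq peaks.

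Counts were summed per gene, rounded and tested with edgeR 4.0.16 (R 4.3.3, TMM, filterByExpr, quasi-likelihood F test, Benjamini-Hochberg over 14151 genes or 22296 transcripts, threshold 0.05). The fit was tested on simulated counts. DESeq2 1.42.0, other scalings, no filter, each library left out and the replicate block were alternatives. TPM used RefSeq lengths, known for 24682 of 24994 transcripts. Summits were assigned to 26180 genes with a curated RefSeq transcript of GRCm38.p6, within 1000 bp of a start (500 and 2500 bp as alternatives). Promoter sequences are from RefSeq (GRCm38.p6) and equal the genome sequence. Depth is total counts for RNA-seq and unknown for the summits. All 9 members are named, and from each other list the 3 genes with the smallest p past the threshold, with Srebf1, Mlxipl, Usf1 and Jmjd1c always. In the list of glucose entry and glycolysis, 1 gene is not reported here and was left out of the counts.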

Additional observations from a re-analysis of the deposited data

How the results depend on the processing

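With all 4 libraries, 4 of the 9 genes were lower and 1 was higher by edgeR, and these counts did not move with DESeq2's size factors, upper-quartile scaling, no filter on low counts or the replicate block, while DESeq2's own test lost Aacs. Leaving out 1 library gave 1 to 6 lower and 0 to 1 higher genes, 408 to 2590 lower and 660 to 2590 higher calls over all genes, and 0 lower transcripts. The 2 lower member transcripts became 5 with DESeq2 and 0 with the replicate block. Libraries of the same replicate number shared no deviation from their group means (correlation −0.0046 over 14151 genes). With 2 libraries a group, this does not show whether the pools were paired. The replicate block changed no call of the 9 genes, with 1996 genes lower and 2211 higher in all. Signs near 0 turned for Thrsp with upper-quartile scaling (log2 0.0050), which shifts the median of all genes to 0.072, and for Acly with DESeq2 (−0.0010), without the filter (−0.0046) and with the replicate block (−0.0075). Leaving out 1 library spread Pnpla3 from −2.69 to −1.48, Fasn from −0.56 to −0.072, Thrsp from −0.48 to 0.27, Acly from −0.21 to 0.18 and Acacb from −0.25 to 0.36. For ATAC-seq, summits of score 5 or more left 0 genes in fasted WT and 0 in JMJD1C-LKO, and leaving out 1 liver gave 1 to 2 genes in fasted WT, 1 to 2 in refed WT and 0 to 1 in JMJD1C-LKO. For H3K9me2 a window of 500 bp left 6 genes in fasted and 4 in refed liver at starts, and leaving out 1 liver gave 4 to 6 genes in fasted and 0 to 6 in refed liver at starts, and 1 to 6 in refed liver with gene bodies included. The causes were not tested. No read counts stand behind the summit lists, so the ATAC-seq absences cannot be set against depth.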
